A study of Mus musculus with 4 samples.

Results

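The Krüppel-like factors examined here were Klf2, Klf3, Klf4, Klf6, Klf7, Klf10 and Klf13, 7 genes of the 55401 in the deposited gene table, and the table held all 7. The set was selected on a measured value, since Klf4 was chosen by its lower counts in the knockout and the other 6 members were taken as its family. The values of Klf4 between genotypes are therefore a description, and no p-value is given for it. The RNA came from follicular B (FOB) cells of the spleen, sorted as B220+ CD93- CD23high CD21low, of C57BL/6 mice aged 7 weeks. There were 2 WT and 2 Hnrnpf bKO libraries. WT mice were Hnrnpf fl/fl without Cre, and Hnrnpf bKO mice were Hnrnpf fl/fl with a Cre insertion that is active in B cells, so the floxed alleles were shared by both groups and the Cre insertion was not. No control carried Cre alone. Neither the labels nor the methods say whether mice were pooled for a library.

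Krüppel-like factors are transcription factors that bind GC-rich and CACCC elements of DNA through 3 zinc fingers at their carboxyl end. In lymphocytes several of them are known for keeping resting cells out of the cell cycle, and KLF2 is also known for controlling where resting cells travel, in part through the egress receptor S1PR1. The FOXO factors and the MEK5, ERK5 and MEF2 cascade are known to act upstream of Klf2 and Klf4. HnRNP F is an RNA-binding protein known for controlling alternative splicing through G-tracts.

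Library totals ranged from 15698567 to 18908963 counts. Hnrnpf, the targeted gene, had 5780 and 6634 counts in WT against 1167 and 1194 in Hnrnpf bKO, a level of 20.1% of WT (adjusted p = 1.05e-10, by the quasi-likelihood F test of edgeR with p-values adjusted over all genes tested, the test behind every adjusted p given here). All 12 follicular B cell markers passed the filter on low counts, and their FPKM (reads per kilobase of exon, scaled to library size) summed to between 6194 and 6444 per library. Summed FPKM of 10 T cell markers lay between 30.6 and 44.9. In RNA of bulk cells, fewer cells of a type and less RNA per cell cannot be told apart.

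Klf2 was the leading Krüppel-like factor of FOB cells by a wide margin. Its level was 217 and 234 FPKM in the WT libraries against 211 and 223 in the knockout libraries, and 98.9% of the 14123 genes tested had a lower mean FPKM. Klf2 held between 71.3% and 74.0% of the summed FPKM of the 7 members in each library. Klf13, which acts at Sp1-like sites, came next at 44.3 and 40.8 FPKM in WT against 43.5 and 39.8 in Hnrnpf bKO. The mean FPKM of Klf2 was 5.25 times that of Klf13.

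Klf6 and Klf3 stood in the middle of the order. Klf6, a widely expressed activator, had 19.3 and 18.6 FPKM in WT against 15.9 and 17.8 in Hnrnpf bKO. Klf3, a repressor that recruits CtBP proteins, had 15.0 and 14.9 FPKM in WT against 13.5 and 15.4 in Hnrnpf bKO. The ranges of Klf6 (15.9 to 19.3 FPKM) and Klf3 (13.5 to 15.4 FPKM) did not overlap, and the ratio of their means, 1.22, was the smallest of any neighbours in the order.

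Klf7, Klf10 and Klf4 were the least abundant members. Klf7 had 5.16 and 5.03 FPKM in WT against 5.33 and 4.63 in Hnrnpf bKO. Klf10, known as a gene induced by TGF-beta, had 1.96 and 1.75 FPKM in WT against 1.42 and 1.77 in Hnrnpf bKO. Klf4 had 1.32 and 1.04 FPKM in WT against 0.48 and 0.58 in Hnrnpf bKO. The order Klf2, Klf13, Klf6, Klf3, Klf7, Klf10, Klf4 was the same in each of the 4 libraries, and no neighbours in it overlapped in their range of FPKM over the 4 libraries.

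**Figure D1:**
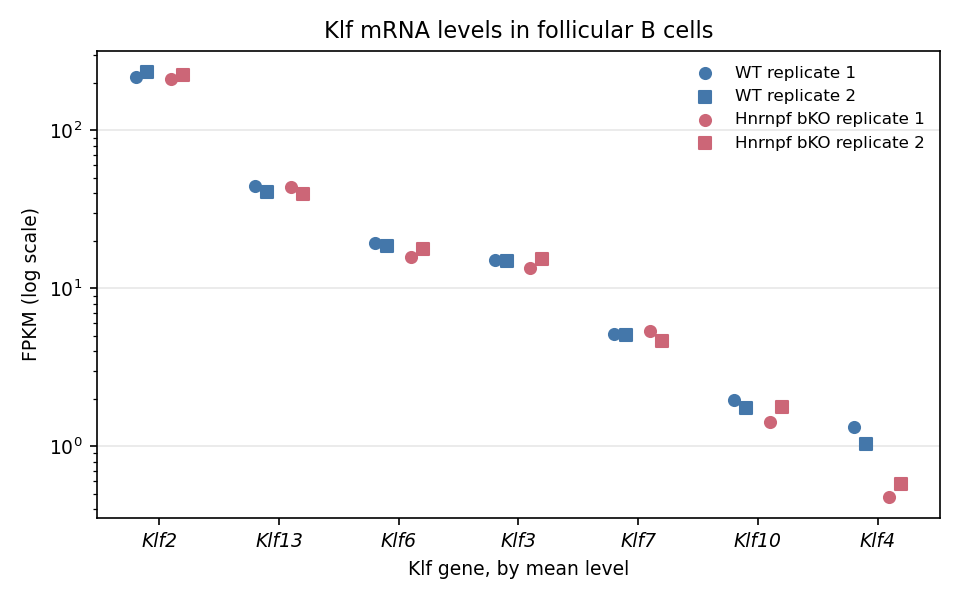
FPKM of each Klf member on a log axis, by gene in the order of the mean level, with a point for each of the 4 libraries (blue WT, red Hnrnpf bKO, circles replicate 1, squares replicate 2). Klf2 sits above 210 FPKM in each library, and Klf4 is the only member whose red points lie far below its blue ones, at 0.48 and 0.58 against 1.32 and 1.04 FPKM.

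Klf4 was the only member that met the rule of the comparison, an adjusted p of at most 0.05 with a fold change of at least 2. It is a factor known to restrain growth in many cell types, B cells among them. Its counts were 66 and 60 in the WT libraries against 23 and 32 in the knockout libraries. Both Hnrnpf bKO libraries were below both WT libraries. Scaled to library size, Klf4 was at 3.60 ± 0.62 CPM (counts scaled to the same library total) in WT against 1.63 ± 0.23 in knockout cells (mean ± SD, n = 2 each). This left 45.7% of the WT level, a log2 fold change of -1.13 with a standard error (SE) of 0.31. Over all genes tested, 0.899% met the rule and 0.255% met it with a lower level in Hnrnpf bKO. Since Klf4 was selected on this contrast, nothing is read from that count.

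The low level of Klf4 limits what its counts can carry. Without WT replicate 1 its log2 fold change was -0.95, and without WT replicate 2 it was -1.30. Without Hnrnpf bKO replicate 1 it was -0.9996, and without Hnrnpf bKO replicate 2 it was -1.28. Klf4 was selected for lower counts in the knockout, so the sign of these values was fixed in advance. Klf4 no longer met the rule when any of these 4 libraries was left out, while it was lower in Hnrnpf bKO each time.

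The other 6 members did not pass the test. Klf2 had 6546 and 8177 counts in WT against 6109 and 7446 in Hnrnpf bKO, and its libraries overlapped between genotypes at 400 and 430 CPM against 390 and 416. The log2 fold change of Klf2 was -0.04 (SE 0.05, adjusted p = 0.709). The 95% interval of this difference runs from 89.4% to 105% of the WT level, so a change of 2-fold in Klf2 lies outside it. Klf13 was as close to its WT level. It had 5462 and 5808 counts in WT against 5143 and 5419 in Hnrnpf bKO, which is a log2 fold change of -0.02 (SE 0.06, adjusted p = 0.895), with an interval from 90.3% to 108% of WT.

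Klf6 came nearest to the threshold among these 6. It had 1389 and 1545 counts in WT against 1095 and 1415 in Hnrnpf bKO, which is 84.9 and 81.2 CPM against 69.9 and 79.0. Both Hnrnpf bKO libraries were below both WT libraries, by little in the second of them. The log2 fold change was -0.16 (SE 0.07, adjusted p = 0.251, unadjusted p = 0.0517), with an interval from 80.4% to 100.1% of WT.

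Klf3, Klf7 and Klf10 overlapped between the genotypes. Klf3 had 169 and 167 CPM in WT against 152 and 174 in Hnrnpf bKO, so the Hnrnpf bKO libraries lay on either side of WT (log2 fold change -0.04, SE 0.06, adjusted p = 0.783, interval 88.3% to 107% of WT). Klf7 had 41.9 and 40.7 CPM in WT against 43.4 and 38.0 in Hnrnpf bKO, again on either side (log2 fold change -0.02, SE 0.09, adjusted p = 0.919, interval 86.3% to 112%). Klf10 had 134 and 138 counts in WT against 93 and 134 in Hnrnpf bKO (log2 fold change -0.20, SE 0.19, adjusted p = 0.623). Its interval, from 65.6% to 116% of WT, was the widest of these 6, and Klf10 had the fewest counts among them.

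At the adjusted p alone, 1 of the 7 members passed, Klf4, against 6.97% of all genes tested, of which 2.83% were lower. Of the 7 members, 2 had both Hnrnpf bKO libraries below both WT libraries in CPM, Klf4 and Klf6, against 24.8% of all genes tested. All 7 log2 fold changes were below 0, as were 50.4% of those of all genes tested. Klf4 was selected for lower counts in the knockout, so its part in these counts was fixed in advance. Only the other 6 members can be set beside the shares of all genes. These 6 did not pass, Klf6 alone among them had both Hnrnpf bKO libraries below both WT libraries, and all lay below 0. A sign below 0 carries little for Klf2, Klf3, Klf7 and Klf13. Their 4 differences were smaller than their standard errors and turned positive when 1 library was left out. They reached 0.013 for Klf2 without WT replicate 2, 0.056 for Klf3 without Hnrnpf bKO replicate 1, 0.071 for Klf7 without Hnrnpf bKO replicate 2 and 0.047 for Klf13 without WT replicate 1.

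**Figure D2:**
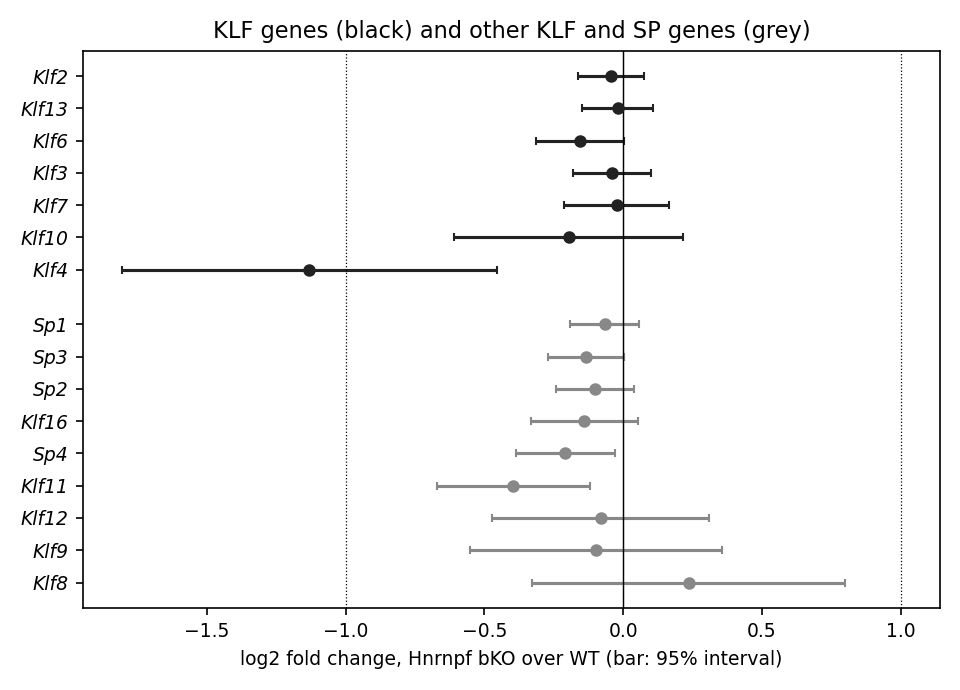
Log2 fold change of each gene, Hnrnpf bKO over WT, with bars for the 95% interval of edgeR's fit, for the 7 members (black) and the 9 other KLF and SP genes tested (grey), each set in the order of its mean FPKM, with dotted lines at a fold change of 2. Klf4 is at -1.13 and selected for it, and the remaining points lie between -0.40 and 0.24.

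The other KLF and SP genes gave a background for the family. SP factors share the zinc fingers of the KLF proteins. Of 19 such genes in the table, 9 passed the filter on low counts, and 0 of them passed an adjusted p of at most 0.05. At an unadjusted p under 0.05 there were 2 (Klf11 at 0.00845 and Sp4 at 0.0246). For this count and its like in the lists below, the share of all genes tested is not given, and nothing is read from them. DESeq2 and limma gave 0 past the adjusted p as well. By limma only 45 or 41 of 13570 genes passed in all, with 0.1 or 1 added to FPKM. A 0 from limma therefore says little for this list or for those below. Of the 9, 8 had a log2 fold change below 0, with a median of -0.10 against 0.00 over all genes tested. Among the other 10 genes, 4 had no count in any library (Klf14, Klf17, Sp7 and Sp8), and Klf1, the factor of red cells, had 3 to 10 counts per library.

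Sp1, Sp3, Sp2 and Klf16 were the most abundant of this set. The log2 fold change was -0.07 for Sp1 (SE 0.06, adjusted p = 0.573), -0.13 for Sp3 (0.06, 0.260), -0.10 for Sp2 (0.07, 0.423) and -0.14 for Klf16 (0.09, 0.425). None of these differences exceeded 2.2 standard errors. Klf11, the closest relative of Klf10 and named here after its values were seen, had 292 and 345 counts in WT against 194 and 267 in Hnrnpf bKO. Its level in Hnrnpf bKO was 76.0% of WT (log2 fold change -0.40, SE 0.13, adjusted p = 0.0865), below both WT libraries in both Hnrnpf bKO libraries. Klf11 passed the threshold when Hnrnpf bKO replicate 2 was left out (log2 fold change -0.54, adjusted p = 0.0365).

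The promoters of Klf2 and Klf4 are shown because these genes stand at either end of the order of levels and are both known as genes downstream of MEF2 and FOXO factors. RefSeq windows of GRCm38.p6, from 250 bases before to 50 bases after the gene start, were found for 6 of the 7 members, and Klf10 had none. The Klf2 stretch is chr8:72318912-72319031 on the plus strand, 150 to 31 bases before the start, with its match to the MEF2 motif in capitals. The Klf4 stretch is chr4:55532566-55532685 on the minus strand, 210 to 91 bases before the start, with its match to the forkhead core TGTTTA in capitals. Both are printed 5′ to 3′ on the strand of the gene.

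Klf2: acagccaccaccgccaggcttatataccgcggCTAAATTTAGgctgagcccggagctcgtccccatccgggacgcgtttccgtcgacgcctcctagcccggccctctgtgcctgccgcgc
Klf4: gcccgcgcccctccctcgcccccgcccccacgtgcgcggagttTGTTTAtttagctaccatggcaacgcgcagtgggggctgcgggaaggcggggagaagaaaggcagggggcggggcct

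Each motif was searched on both strands, and matches that overlapped were all counted. The motifs were chosen with these sequences in view. The MEF2 match of Klf2 begins 118 bases before the start, and Klf2 was the only 1 of the 6 members with such a match in its window, against 3.19% of 32851 RefSeq promoter windows. The TGTTTA match of Klf4 begins 167 bases before the start, and Klf4 was the only 1 of the 6 with it, against 13.4% of windows. The GC box GGGCGG was in 6 of the 6 windows, against 35.7% of all windows, with 6 matches for Klf3 and 4 for Klf4. CACCC was in 4 of the 6, Klf2, Klf3, Klf7 and Klf13, against 57.5% of all windows. The members' windows were rich in G and C, between 58.3% and 76.7%, where the median window had 52.7%. The mRNA levels of Klf2 were close in both genotypes and those of Klf4 were not, and no factor binding was measured here.

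No splicing event of a Klf member was in the deposited table of significant events. That table lists 1556 events in 1173 genes, and 8.22% of the genes tested for mRNA level have an event in it. The share was 10.6% where the mean count was 100 or more, a depth that 6 of the members reached and Klf4 did not. The other KLF and SP genes had 0 events as well. With 7 genes, 0 listed is close to what the background share gives, and events outside the table were not analysed here.

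The members are short genes in number of exons. In GENCODE M21, the longest coding transcript has 2 exons for Klf13, 3 for Klf2, 4 for Klf6, Klf7 and Klf10, 5 for Klf4 and 6 for Klf3, against a median of 9 over 11243 genes tested. With 2 exons, Klf13 offers no internal exon to skip in that transcript. Runs of at least 3 G, the kind of tract that hnRNP F binds, numbered 28 in the Klf2 transcript and 34 in that of Klf4. Per kilobase this was 15.2 for Klf2 and 11.2 for Klf4. The density ranged from 7.23 for Klf10 to 16.3 for Klf13, around the median of 12.2 per kilobase, and Klf4 lay within that range. These counts are of spliced transcripts. Introns, where the paper mapped hnRNP F binding in Cd40, were left out. Binding of hnRNP F to Klf RNA was not tested here.

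Genes known to act upstream of the KLF factors gave 0 of 14 past an adjusted p of at most 0.05. At an unadjusted p under 0.05 there were 4 of 14, and with no share of all genes beside it nothing is read from this. DESeq2 and limma gave 0 past the adjusted p as well. With a library left out, between 0 and 1 of the 14 passed. Their log2 fold changes lay between -0.16 and 0.18, with a median of 0.05. Mef2d, a MEF2 factor, had 6407 and 7467 counts in WT against 5350 and 6776 in Hnrnpf bKO (log2 fold change -0.12, SE 0.06, adjusted p = 0.230). Tgfbr2, a TGF-beta receptor chain, had 8370 and 9378 counts against 8287 and 9375 (log2 fold change 0.07, SE 0.05, adjusted p = 0.486). Foxo1, named after its values were seen, had 4596 and 4924 counts against 4506 and 5328 (log2 fold change 0.12, SE 0.05, adjusted p = 0.256). Of these 14 genes, 2 were in the splicing table, Mapk7, which encodes ERK5, with 3 events, and Mef2d with 1, both named after they were seen there.

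Partners of the KLF proteins and the enzymes known to turn them over gave 0 of 12 genes tested past the adjusted p. The median log2 fold change was 0.04, and 1 gene had an unadjusted p under 0.05. No share of all genes stands beside that 1, and nothing is read from it. DESeq2 and limma also gave 0 past the adjusted p, while 2 genes passed it without Hnrnpf bKO replicate 2 (Crebbp and Ep300, both lower, named after they were seen to pass). Ctbp1, the corepressor that KLF3 recruits, had 4359 and 5163 counts in WT against 4526 and 5066 in Hnrnpf bKO (log2 fold change 0.09, SE 0.05, adjusted p = 0.353). Hdac1, a histone deacetylase, was at -0.03 (SE 0.06, adjusted p = 0.830). Ctbp2 had at most 6 counts per library and was not tested. In the splicing table were 3 genes of this set, named after they were seen there, the ubiquitin ligase genes Fbxw7 with 2 events and Wwp1 with 1 and the acetyltransferase gene Kat2b with 1.

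Among 8 tested genes known as KLF targets, S1pr1 fell at the adjusted p of 0.05, a threshold that 2.83% of all genes tested passed with a lower level and 4.15% with a higher one. S1pr1, which encodes the egress receptor, had 5056 and 6432 counts in WT against 3885 and 5017 in Hnrnpf bKO. At 309 and 338 CPM in WT against 248 and 280, S1pr1 was lower in both knockout libraries (log2 fold change -0.29, SE 0.06, adjusted p = 0.0156). S1pr1 no longer passed without WT replicate 2 (adjusted p = 0.0717) or without Hnrnpf bKO replicate 1 (adjusted p = 0.120). With limma, 0 genes of this list passed the adjusted p at either setting. S1pr1 is known as a gene that KLF2 activates, and the level of Klf2 itself did not pass the test.

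Itgb7, Cdkn1a and Ccnd2, other genes of this list, did not pass. Itgb7, the integrin beta chain of gut homing, had 5238 and 5744 counts in WT against 4669 and 5467 in Hnrnpf bKO (log2 fold change -0.04, SE 0.05, adjusted p = 0.682). Cdkn1a, which encodes the cell cycle inhibitor p21 and is known as a KLF4 target, had 12 and 16 counts in WT against 21 and 17 in Hnrnpf bKO (log2 fold change 0.52, SE 0.45, adjusted p = 0.578). Ccnd2, which encodes cyclin D2, had 1224 and 1603 counts against 1364 and 1626 (log2 fold change 0.16, SE 0.07, adjusted p = 0.228). Cdkn1a and Ccnd2 were named after their values were seen. The interval of Cdkn1a runs from 72.7% to 284% of WT, so its direction could not be told at this depth.

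Among other genes tied to quiescence, 5 of 20 tested rose and 1 fell at the adjusted p, against 4.15% and 2.83% of all genes tested. Of these genes, 0 reached a fold change of 2. Zfp36l2, which encodes an mRNA decay factor, had 8839 and 7747 counts in WT against 14091 and 12943 in Hnrnpf bKO (log2 fold change 0.78, SE 0.11, adjusted p = 0.00118). Pik3ip1, an inhibitor of PI3K, had 1505 and 1469 counts against 2678 and 1932 (log2 fold change 0.72, SE 0.15, adjusted p = 0.0131). In both genes the knockout libraries were above both WT libraries. Btg2, an antiproliferative gene, rose by 0.34 on the log2 scale (SE 0.05, adjusted p = 0.00133). Bach2, a repressor that holds back plasma cell fate, rose by 0.26 (SE 0.05, adjusted p = 0.00627), as did Slfn2 by 0.28 (SE 0.06, adjusted p = 0.0145). Zfp36l1, a close relative of Zfp36l2, fell by 0.25 on the log2 scale (SE 0.06, adjusted p = 0.0184). Slfn2 and Zfp36l1 were named after their values were seen. Zfp36l1 was lost without Hnrnpf bKO replicate 1 (adjusted p = 0.186), and Slfn2 without WT replicate 2 (0.0656) or Hnrnpf bKO replicate 2 (0.0817). With DESeq2, Zfp36l2 and Pik3ip1 did not pass (adjusted p = 0.0542 and 0.318), and with limma 0 of the 20 genes passed at either setting. The log2 fold changes of the list lay between -0.25 and 0.78, with a median of 0.05. An unadjusted p under 0.05 was found for 10 of the 20 genes. The share of all genes tested at that threshold is not given here, so nothing is read from this count.

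Of 17 genes of cell cycle entry, 1 rose and 0 fell, against 4.15% and 2.83% of all genes tested. That count is near those shares, and nothing is read from it. The one that rose was Myc, with 1500 and 1992 counts in WT against 1966 and 2140 in Hnrnpf bKO (log2 fold change 0.32, SE 0.07, adjusted p = 0.0146). Myc did not pass without WT replicate 1 (adjusted p = 0.0956) or Hnrnpf bKO replicate 1 (adjusted p = 0.0686). With limma, 0 genes of this list passed at either setting. The median log2 fold change of this list was -0.02.

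**Figure D3:**
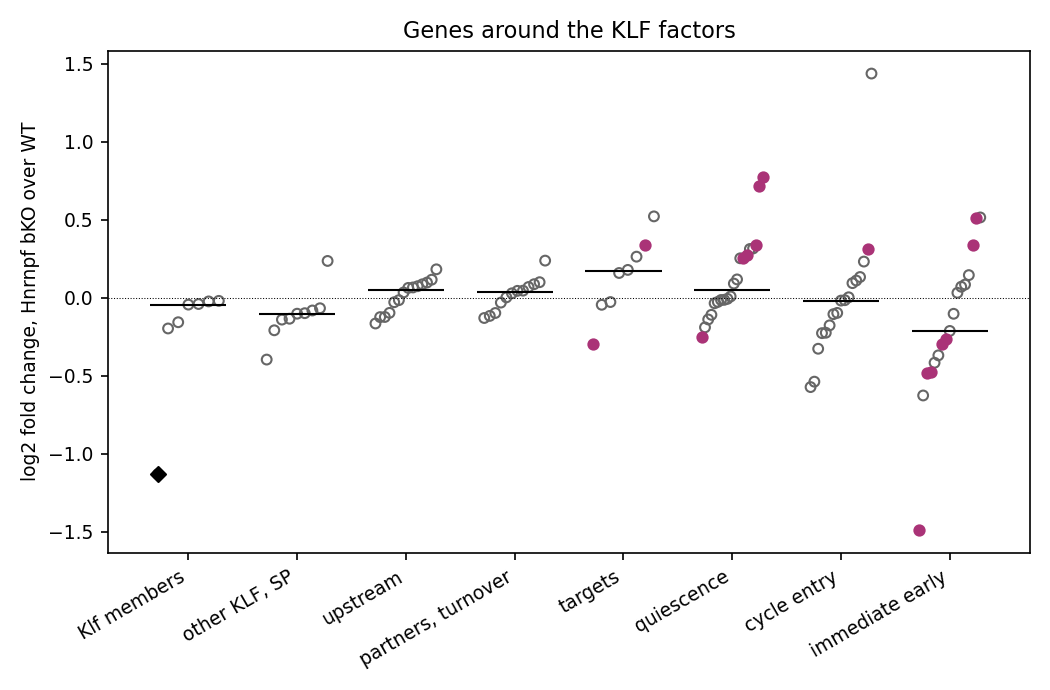
Log2 fold change, Hnrnpf bKO over WT, of every tested gene in each list, with filled points for an adjusted p of at most 0.05, open points for the others, a black diamond for Klf4, for which no p is given, and a line at the median of each list. The upstream and partner genes lie between -0.16 and 0.24 with no filled point, while the immediate early genes have filled points between -1.49 and 0.51.

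Immediate early genes are given beside Klf4, since several KLF genes are themselves induced early by stimulation and by handling of cells. Of 17 tested, 5 fell and 2 rose at the adjusted p of 0.05, against 2.83% and 4.15% of all genes. The median log2 fold change was -0.21. With limma, Ier2 alone of this list passed, at either setting. Ier2 had 1784 and 2036 counts in WT against 1177 and 1419 in Hnrnpf bKO (log2 fold change -0.49, SE 0.06, adjusted p = 4.78e-04). Junb, a subunit of AP-1, had 2135 and 2340 counts against 1383 and 1688 (log2 fold change -0.47, SE 0.06, adjusted p = 5.78e-04). Fos, the other AP-1 gene that fell, had 231 and 131 counts against 38 and 88 and stood at 35.7% of WT (log2 fold change -1.49, SE 0.34, adjusted p = 0.0189). Its libraries were as scattered as they were low, with 14.1 and 6.89 CPM in WT. Fos did not pass without WT replicate 1 (log2 fold change -0.89, adjusted p = 0.0953), without Hnrnpf bKO replicate 1 (-1.08, 0.0703) or with DESeq2 (adjusted p = 0.272).

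The genes that fell also held Zfp36 and Ier5, at log2 fold changes of -0.30 and -0.27. Without Hnrnpf bKO replicate 1 neither passed (adjusted p = 0.115 and 0.0711), and Ier5 did not pass without WT replicate 1 either (0.0651). Cd69, a surface protein that holds lymphocytes in tissue by acting on S1PR1, rose by 0.51 on the log2 scale (SE 0.08, adjusted p = 0.00294), and Btg2, also in this list, rose as given above. Fos, Zfp36 and Ier5 were named after their values were seen. The part of handling or of stimulation in the level of Klf4 was not tested.

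Markers of cells outside the sort summed far below the follicular B cell markers, and they did not all go the way of Klf4. They were not all low beside Klf4. S100a9 and Cd68 had a mean of 13.3 and 6.15 FPKM over the libraries, against 0.855 for Klf4. Klf4 is well known from monocytes and neutrophils. Of 20 myeloid markers, 15 were tested. At an adjusted p of at most 0.05, 4 of these rose and 0 fell, against 4.15% and 2.83% of all genes tested. These 4 were neutrophil genes, with Ltf at a log2 fold change of 1.86 (SE 0.33, adjusted p = 0.00454), S100a8 at 1.53 (0.28, 0.00552), Ngp at 1.48 (0.31, 0.0129) and S100a9 at 1.34 (0.26, 0.00808). The summed FPKM of the 20 genes was 62.9 and 74.2 in WT against 79.8 and 108 in Hnrnpf bKO, of which Spi1, also a B cell gene, made up a mean of 37.2. Cd14, Fcgr1 and Cebpa had at most 3 counts in each library, and Mpo and Elane at most 7 and 10. These neutrophil genes were higher in the genotype in which Klf4 was lower. The part of neutrophil RNA in the level of Klf4 was not tested.

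The macrophage genes Cd68 and Adgre1, named after their values were seen, lay the other way. Cd68 had 168 and 155 counts in WT against 94 and 117 in Hnrnpf bKO (log2 fold change -0.55, SE 0.19, adjusted p = 0.101). Adgre1 had 39 and 62 counts against 28 and 24 (log2 fold change -0.86, SE 0.34, adjusted p = 0.165). Both were lower in both knockout libraries, as Klf4 was, and neither passed the test. The part of macrophage RNA in the level of Klf4 was not tested.

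Other cell types that use KLF2 or KLF4 gave sums that were small beside that of the follicular B cell markers. The 8 endothelial and stromal markers summed to 52.4 and 52.9 FPKM in WT against 47.9 and 42.9 in Hnrnpf bKO, with 5 of the 8 at no more than 3 counts in each library. Of these sums, Pecam1 alone, named after its values were seen, made up 51.9 and 52.4 FPKM in WT against 47.6 and 42.6 in Hnrnpf bKO. Cdh5, the other tested marker of these 8 and also named after its values were seen, was far less abundant. Its counts were 26 and 36 in WT against 21 and 12 in Hnrnpf bKO. Like Klf4, Cdh5 was lower in both knockout libraries, and it did not pass (log2 fold change -0.81, SE 0.43, adjusted p = 0.320). The part of endothelial and stromal RNA in the level of Klf4 was not tested. The 10 T cell markers summed to 35.0 and 44.9 FPKM in WT against 30.6 and 35.3 in Hnrnpf bKO. Of these sums, Lck, named after its values were seen, made up 17.8 and 20.5 FPKM in WT against 15.3 and 16.2. Of the 10 log2 fold changes, 9 were below 0 and 1 was above, with a median of -0.31. None of the T cell markers passed the adjusted p. The part of T cell RNA in the level of Klf4 was not tested. Red cell and platelet markers summed to between 2.65 and 5.46 FPKM. Of 8 marginal zone markers, 2 rose and 2 fell at the adjusted p, against 4.15% and 2.83% of all genes tested. Cd1d1 and Plac8 rose, with log2 fold changes of 0.34 and 0.26, and S1pr3 and Dtx1 fell, with -0.46 and -0.23. The median of the 8 was -0.06.

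The genes whose pattern over the 4 libraries was most like that of Klf4 were found by the root mean square distance of log2 CPM, centred on each gene's mean, among 13869 genes whose mean count was 10 or more. Klf4 itself was at 0.72 and 0.37 in WT and -0.68 and -0.41 in Hnrnpf bKO. C230085N15Rik was nearest, at a distance of 0.04, with 28 and 27 counts in WT against 9 and 13 in Hnrnpf bKO. Angptl1 followed at 0.07, with 52 and 44 counts against 19 and 26. Extl1 was at 0.08, with 221 and 222 counts against 88 and 129, which makes it the best counted of these genes. 4930549G23Rik and Serp2 were at 0.09 and 0.10. With 4 libraries such a likeness is a description of these libraries alone.

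**Figure D4:**
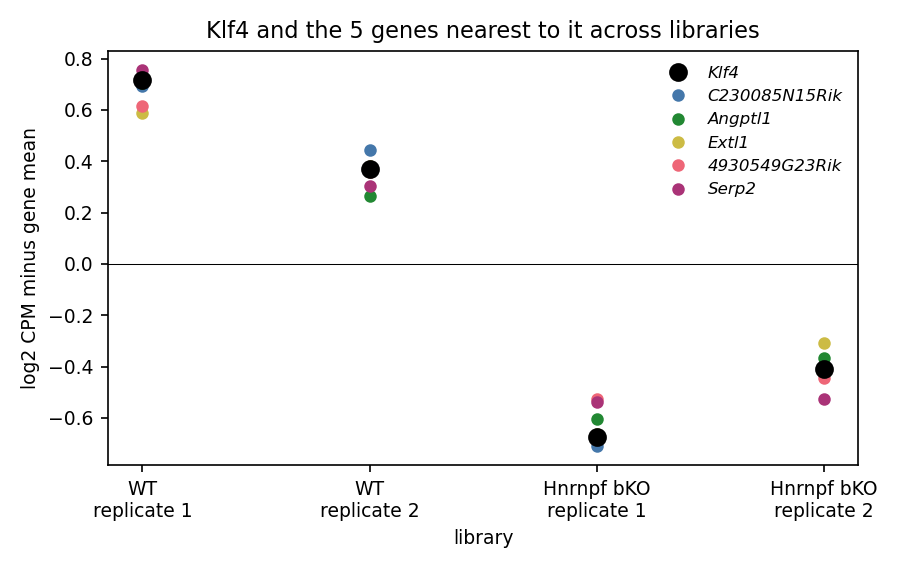
Log2 CPM minus the mean of each gene, by library, for Klf4 (large black points) and the 5 genes nearest to it (coloured points). All 6 genes are above 0 in both WT libraries and below 0 in both Hnrnpf bKO libraries, with Klf4 at 0.72, 0.37, -0.68 and -0.41.

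Reads of overlapping genes on the other strand could not be told apart, since the library kit does not mark strand. This touches Klf3, whose gene overlaps Gm20033 (45 to 54 counts per library), Klf13, whose gene overlaps Gm27252 (28 to 42 counts) and E030018B13Rik (1 to 9 counts), and Klf7, whose gene overlaps Gm13748 (0 to 5 counts). On its own strand Klf3 also overlaps C230096K16Rik (12 to 35 counts). All of these were far below the counts of the Klf gene, and no gene in the table overlapped Klf2, Klf4, Klf6 or Klf10. By coordinates of GRCm38, Klf4 (ENSMUSG00000003032) spans bases 55527143 to 55532466 of chromosome 4 on the minus strand, and Klf2 (ENSMUSG00000055148) spans 72319033 to 72321656 of chromosome 8 on the plus strand.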

How the data were processed

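Libraries of poly(A) RNA from sorted FOB cells were read from both ends. The authors trimmed reads with Cutadapt 1.9.1, aligned them to GRCm38 with HISAT2 2.0.1 and counted reads per gene with HTSeq 0.6.1 (versions as in the submitters' processing notes). The strand setting and annotation release are not given in the sources used here. The deposited counts are whole reads per gene without normalization. The deposited FPKM values were scaled by the authors to exonic size and library total. The deposited splicing table, from rMATS, gives the authors' adjusted p-value and mean inclusion difference per event. Those columns are the authors' own comparison, and the table served here to see which genes are listed and, in an alternative, which events have an FDR under 0.01.

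Counts were compared with edgeR 4.0.16 (TMM, filterByExpr, quasi-likelihood F test) in R 4.3.3, adjusted by the Benjamini-Hochberg method over 14123 genes. The calls used the thresholds of the study, an adjusted p no higher than 0.05 together with a fold of 2 or more. Intervals are 95% intervals of the log2 fold change from this fit. Alternatives were DESeq2 (run here in version 1.42.0; the study used an earlier release), limma 3.58.1 on log2 of FPKM with 0.1 or 1 added, where the mean FPKM reached 0.5, RLE size factors, library totals, other filters, the replicate number as a block and each library left out. The edgeR and DESeq2 fits were tested on simulated data, and limma was not. Libraries of a group were further apart than sampling noise allows (chi-square per degree of freedom 4.13 for WT and 3.77 for Hnrnpf bKO). The labels do not say that they came from separate mice, so p-values measure the spread between these samples. An exact permutation test of 2 against 2 libraries cannot go below p = 0.333. Library totals (15698567 to 18908963 counts) gave a median standard error of 0.08 (log2) where the mean count was 100 or more and 0.40 elsewhere.

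The members and gene lists were chosen with earlier results of these data known. Genes named were the members, Hnrnpf, the 4 most abundant other KLF and SP genes and any past the adjusted p, up to 4 genes past the adjusted p of each further list, the 2 most abundant target, upstream and partner genes, and the 5 nearest to Klf4. Others are said to be named after their values were seen. Some genes that meet the rule are left out here. Promoters come from RefSeq (GRCm38.p6) and transcripts from GENCODE M21.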

Additional observations from a re-analysis of the deposited data

How the results depend on the processing

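The number of Klf members called was 1 with RLE size factors, library totals, either other filter on low counts and a fold of at least 1.5, and so was the number past the adjusted p under the first 4 of these. Both numbers were 0 with DESeq2, with limma on log2(FPKM + 0.1) or log2(FPKM + 1), with the replicate block, and with any library left out (0 to 0). The member lost in each is Klf4, which was called under 4 of 12 alternatives and had a negative log2 fold change under 12 of 12, between -1.30 (without WT replicate 2) and -0.51, the latter with log2(FPKM + 1), where the pseudocount shrinks low genes. Since Klf4 was selected for lower counts in the knockout, its sign in refits of the same libraries was fixed in advance. Nothing is read from that sign or from the calls of Klf4. With 1 library left out, log2 fold changes ran from -0.093 to 0.013 for Klf2 and from -0.14 to 0.056 for Klf3. They ran from -0.12 to 0.071 for Klf7 and from -0.080 to 0.047 for Klf13. No other member passed an adjusted p of 0.05 under any of the 12 alternatives. Genes past the adjusted p in the lists other than the members and the cell type markers numbered 15, and 1 with either limma setting, and the cause was not tested. Over all genes, 127 were called and 985 passed the adjusted p alone. DESeq2 gave 73 and 621, limma 22 and 45 or 19 and 41, the replicate block 98 and 612, and no filter 217 and 1470. The replicate numbers pair nothing by design, and deviations of same-numbered libraries correlated at -0.07 across genes. In a fit with 1 library in a group, that library is assumed to vary like the others. Members under 100 counts could show only large differences. Splicing rows of the members stayed at 0 with an FDR under 0.01.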
